A study of Caenorhabditis elegans with 12 samples.

Results

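The 34 genes described here act in the germline of the nematode Caenorhabditis elegans: in its stem cells, in meiosis and in P granules. They were chosen by name from a list of germline genes, and their gene identifiers in the count table were matched to symbols. All 34 were found among 46748 genes in the table, and all 34 were among the 14567 genes that passed the filter on low counts. The RNA came from whole hermaphrodites of the wild-type strain N2. The worms were fed bacteria with a bcat-1 RNAi vector or with L4440, the empty RNAi vector. The ages were 1 day and 2 days, and the labels do not say from which stage age was counted. The 4 groups were bcat-1 RNAi at day 1, L4440 at day 1, bcat-1 RNAi at day 2 and L4440 at day 2, with 3 libraries each. All groups share the strain, the sex and the whole-worm tissue. BCAT-1 is a transaminase of branched-chain amino acids and catalyses the opening step of their catabolism. The comparisons ask how silencing its gene, at each age, and the passage of a day on each food relate to the levels of these transcripts. The labels do not say whether libraries came from separate cultures, so p-values measure only the spread between these samples. The labels give no replicate numbers, so the numbers used here only name libraries.

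The adult hermaphrodite gonad is ordered along its length. At its distal end, Notch signalling from a somatic niche cell to the receptor GLP-1 keeps germ cells dividing, and RNA-binding proteins move them into meiosis as they leave the niche. In meiosis, homologous chromosomes pair, are joined along their length by the synaptonemal complex, are cut and repaired by recombination, and keep a crossover that holds them together until division. P granules are RNA and protein condensates on the outer face of germ cell nuclei. Much of this RNA is made in adult germ cells, which form a large share of the worm. In RNA from whole worms, fewer germ cells and less RNA per germ cell cannot be told apart.

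Silencing of bcat-1 was visible in 5 of the 6 libraries labelled with it. The bcat-1 transcript stood at 19.5, 18.01 and 27.1 CPM (read counts as a share of the scaled library size) in bcat-1 libraries at day 1, against 180, 175 and 156 CPM in L4440 libraries. At day 2 it stood at 13.9, 17.4 and 329 CPM in bcat-1 libraries, against 140, 157 and 117 CPM in L4440 libraries. The library labelled bcat-1 day 2 replicate 3 therefore went against its label. The same library had 41.5% of its counts in ribosomal RNA genes, against 0.0724% to 6.74% in the other 11. The 34 genes took 0.480% of its counts outside ribosomal RNA genes, against 0.536% to 0.601% elsewhere. Library totals ran from 29291731 to 43855795 counts, and no member had fewer than 231 counts in any library. Germ cell products of the female programme were plentiful, since 28 oocyte and maternal genes summed to between 20880 and 25880 CPM. A list of 21 sperm genes summed to between 36.4 and 45.5 CPM, and 1 of its genes had no count in any library.

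The levels of the 34 genes spanned 83.6-fold when expressed per length, as CPM per kilobase of exon. At the top was gld-1, which encodes a translational repressor of the meiotic germline, at 537 CPM per kilobase, the 98.6th percentile of the genes tested. It was followed by the P granule genes pgl-1 at 167 and pgl-3 at 130, then by gld-3 at 120 and the P granule helicase gene glh-1 at 117 CPM per kilobase. The lowest were the PUF family genes fbf-1 at 8.83 and fbf-2 at 6.42 CPM per kilobase, and fbf-2 was the only member below the median of the genes tested. The members are long genes for this table, with a median summed exon length of 2207.5 bases against 1376 over all genes tested. On the WBcel235 build 13 of them lie on chromosome IV, 9 on I, 5 on II, 5 on V and 2 on III. The pairing genes zim-1, zim-2, zim-3 and him-8 form a cluster on chromosome IV from 10547086 to 10563974, and pgl-1 lies 189 bases from him-3 on the opposite strand.

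**Figure D1:**
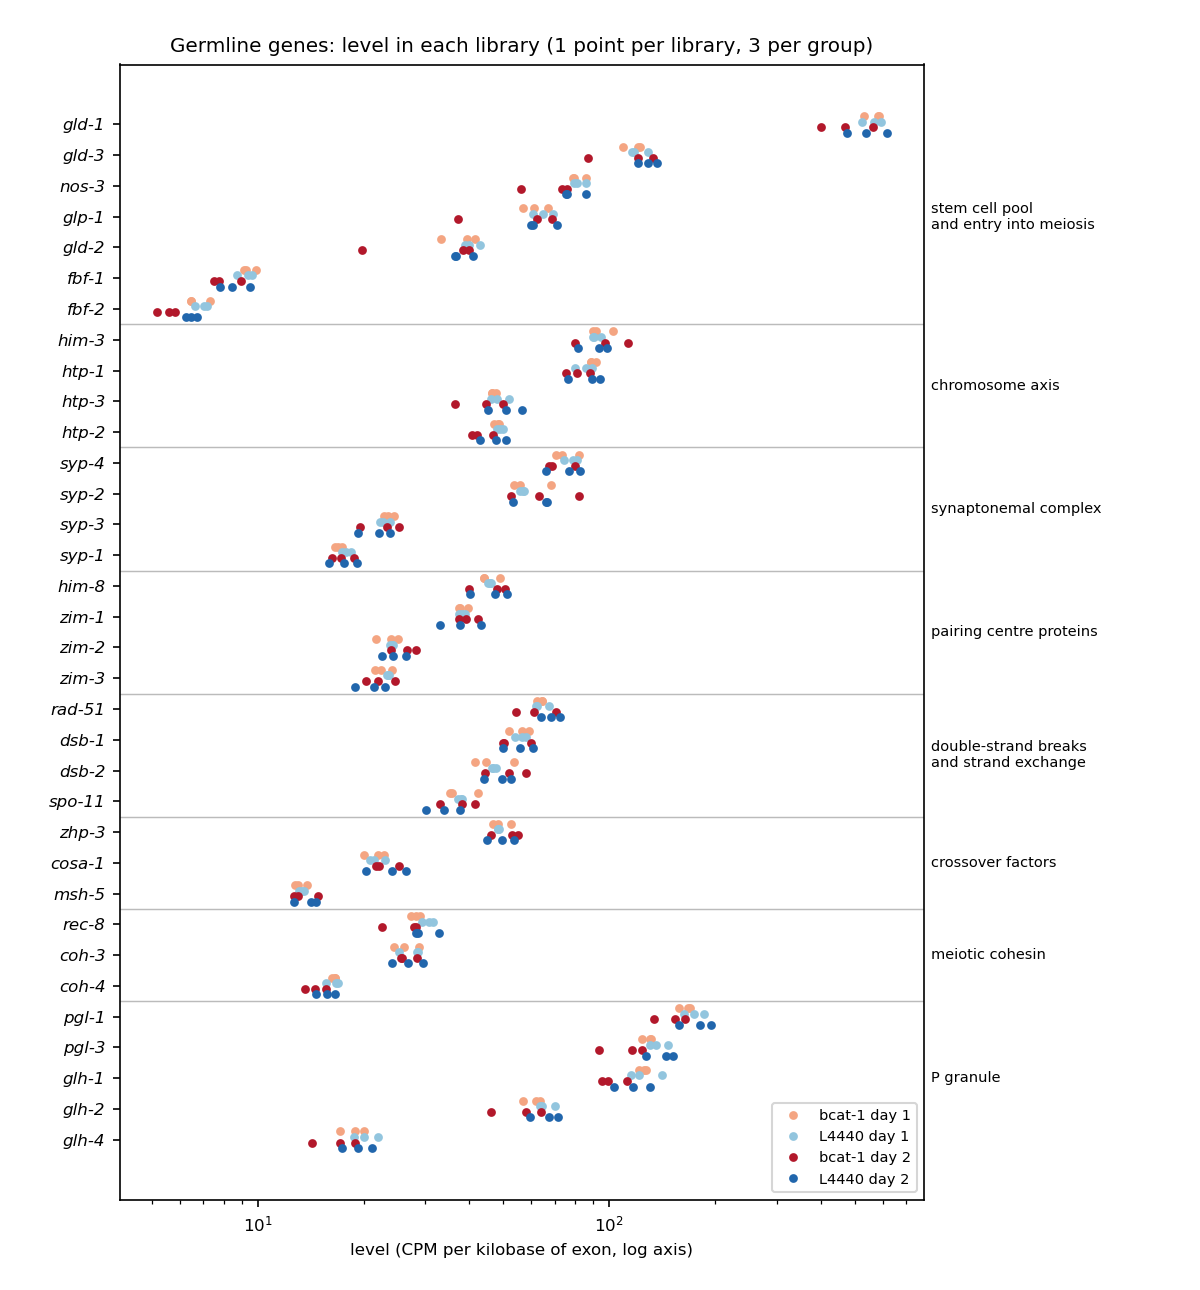
Level of each of the 34 genes in each of the 12 libraries, in CPM per kilobase of exon on a log axis, with rows grouped by role and 1 point per library. The order of the genes spans 83.6-fold from gld-1 to fbf-2, while the highest and lowest library of a single gene differ by 1.18-fold (msh-5) to 2.17-fold (gld-2).

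At day 1 none of the 34 genes passed the test between bcat-1 RNAi and L4440 (edgeR quasi-likelihood test, Benjamini-Hochberg adjusted p of 0.9999 for each). None of the 14567 genes tested passed it either (0%). The smallest adjusted p of any gene in this edgeR fit was 0.116, so even the RNAi target bcat-1 did not pass. The lack of a call therefore does not show that a gene was unchanged. With only the compared groups fitted, 1 of all genes passed, and 1 passed without the library labelled bcat-1 day 2 replicate 3. DESeq2 and limma-voom likewise called none of the 34 genes, here and in the other comparisons. Of all genes, DESeq2 called 16 at day 1 and limma-voom called 0. No member had an unadjusted p under 0.05, against 2.04% of all genes. The median log2 fold change of the 34 genes was -0.02, beside 0.01 over all genes, with 12 values above 0 and 22 below. Single values ran from -0.12 (glh-2) to 0.08 (htp-1), and no 95% interval reached below -0.54 (gld-2) or above 0.40 (syp-2). The cohesin gene rec-8 was the 1 member whose groups did not overlap, and it was lower on bcat-1 RNAi. Of all genes tested, 4.65% were lower without overlap.

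At day 2 again none of the 34 genes passed the test between bcat-1 RNAi and L4440, where 61 of all genes tested did (0.419%). The smallest adjusted p was 0.355, for pgl-3. The log2 fold changes were below 0 for 25 genes and above 0 for 9, with a median of -0.09, beside -0.02 and 53.1% below 0 over all genes. At an unadjusted p under 0.05 there were 3 lower members, pgl-3, pgl-1 and fbf-2, and no higher one, against 2.41% of all genes lower. Without the library labelled bcat-1 day 2 replicate 3 only pgl-3 remained, with pgl-1 at -0.18 and fbf-2 at -0.20. The groups of 3 members, pgl-3, fbf-2 and rec-8, did not overlap, and each was lower on bcat-1 RNAi, against 4.24% of all genes. By role, the P granule genes had the lowest median log2 fold change (-0.24, 5 of 5 below 0), followed by the stem cell and meiotic entry genes (-0.19, 7 of 7 below 0). The chromosome axis genes had a median of -0.11 and the cohesin genes of -0.10. The other meiotic genes lay close to 0, with medians of 0.03 for the synaptonemal complex, 0.07 for the pairing proteins, 0.01 for double-strand breaks and strand exchange, and -0.03 for the crossover factors. Some lists outside the 34 genes also had medians below 0 at day 2, and no gene of the lists named here passed the test. The median was -0.22 for epidermis and moult (14 of 17 below 0) and -0.15 for the cell cycle and DNA replication (14 of 15). It was -0.14 for body wall muscle (13 of 14) and -0.12 for oocyte and maternal genes (22 of 28). Smaller medians were -0.09 for neurons, -0.06 for sperm genes and -0.05 for the intestine. The somatic gonad had a median of 0.01 (3 of 7 below 0) and early embryo zygotic genes of 0.41 (4 of 9). The part of what these lists measure in the members' values was not tested. Without the library labelled bcat-1 day 2 replicate 3, the median of the 34 genes was -0.05, beside -0.02 over all genes, and 26 were below 0. The order of the roles changed, with medians of -0.16 for P granule, -0.11 for chromosome axis and -0.11 for cohesin genes. The stem cell and meiotic entry genes came after these, at -0.07 (5 of 7 below 0). Without L4440 day 2 replicate 2 the median of the 34 genes was -0.01, with 18 below 0, beside -0.03 over all genes. Without bcat-1 day 2 replicate 1 the median of the 34 genes was -0.03, with 21 below 0, beside -0.05 over all genes. In both of these settings the members' median lay above that of all genes. Without bcat-1 day 2 replicate 2 the median of the 34 genes was -0.15, beside 0.03 over all genes. The count of members at an unadjusted p under 0.05, all of them lower, was 12 in that last setting, where 11.6% of all genes had such a p in either direction, against 7.21% with all libraries. Leaving out L4440 day 2 replicate 1 gave 6 (9.3% of all genes). The count was 1 when any other single library of day 2 was left out. Of all genes, 15.6% had such a p without bcat-1 day 2 replicate 1, and 4.46% to 6.19% in the rest of these settings. The count was 0 without both libraries richest in ribosomal RNA (3.6% of all genes).

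**Figure D2:**
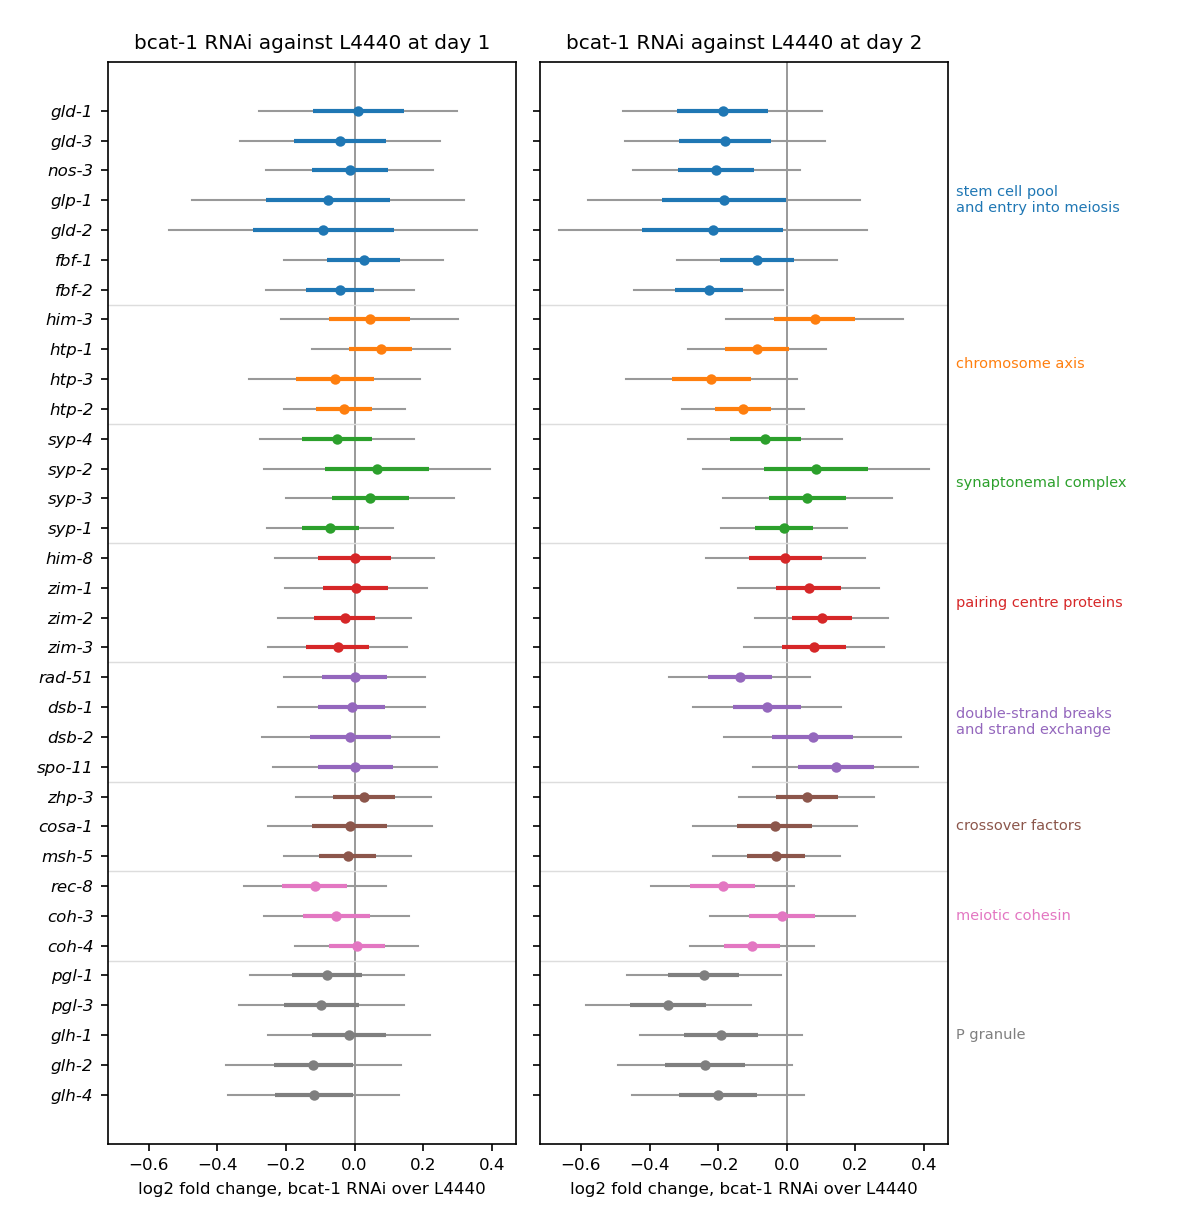
Log2 fold change of each of the 34 genes, bcat-1 RNAi over L4440, at day 1 and at day 2. Points are coloured by role, thick bars are the SE and thin bars the 95% interval of the edgeR fit. At day 1 the values lie between -0.12 and 0.08, and at day 2 between -0.35 (pgl-3) and 0.14 (spo-11), with the P granule genes farthest to the left.

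In the P granule group, PGL-1 and PGL-3 are the scaffold proteins of P granules, and GLH-1, GLH-2 and GLH-4 are Vasa family helicases that sit in the same granules. At day 2 pgl-3 (chromosome V, 4755979 to 4758587) stood at 264, 284 and 214 CPM in bcat-1 libraries, against 290, 347 and 332 CPM in L4440 libraries. Every bcat-1 library was below every L4440 library, and the library labelled bcat-1 day 2 replicate 3 was the lowest of the 12. The log2 fold change was -0.35 (SE 0.11, 95% interval -0.59 to -0.11), with an adjusted p of 0.355 in the edgeR fit. At day 1 pgl-3 stood at 284, 301 and 299 CPM in bcat-1 libraries, against 337, 311 and 298 CPM in L4440 libraries, and these groups overlapped. Without the library labelled bcat-1 day 2 replicate 3 the day 2 value was -0.25, with an adjusted p of 0.768.

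The companion scaffold gene pgl-1, chosen for full values after they were seen, stood at 383, 409 and 334 CPM in bcat-1 libraries at day 2, against 395, 485 and 451 CPM in L4440 libraries. Its groups overlapped through L4440 replicate 1, and its log2 fold change was -0.24 (SE 0.10, adjusted p = 0.645 in the edgeR fit). Its neighbour him-3 had a log2 fold change of 0.08 (SE 0.12), and -0.06 without the library labelled bcat-1 day 2 replicate 3.

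The helicase gene glh-1 stood at 274, 310.4 and 265 CPM in bcat-1 libraries at day 2, against 286, 361 and 323 CPM in L4440 libraries. Its day 1 values were 336, 352 and 347 CPM in bcat-1 libraries, against 391, 338 and 319 CPM in L4440 libraries. At both days the groups overlapped, and the day 2 log2 fold change was -0.19 (SE 0.11, adjusted p = 0.759 in the edgeR fit). Its relative glh-2 stood at 187, 205 and 149 CPM in bcat-1 libraries at day 2, against 191, 229.9 and 217 CPM in L4440 libraries. At day 1 glh-2 stood at 183, 199 and 205 CPM in bcat-1 libraries, against 225, 204 and 207 CPM in L4440 libraries. The day 2 log2 fold change of glh-2 was -0.24 (SE 0.12, adjusted p = 0.732 in the edgeR fit), with L4440 replicate 1 inside the range of the bcat-1 group. The remaining member, glh-4, had a log2 fold change of -0.20 (SE 0.11). When the library labelled bcat-1 day 2 replicate 3 was left out, glh-2 was at -0.13 and glh-4 at -0.12. All 5 P granule genes had values below 0 in the main fit and in each of 25 other settings, with medians between -0.32 and -0.13. These settings refit the same libraries, and some leave out only a day 1 library, so they are not separate checks. The summed P granule level was 1172, 1279 and 1015 CPM in bcat-1 libraries at day 2, against 1227, 1503 and 1396 CPM in L4440 libraries.

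A list of 22 other P granule and germ granule genes, among them the Argonaute genes prg-1 and csr-1, gave the same sign at day 2 with all libraries. All 22 had log2 values below 0, with a median of -0.16, none passed the test and none had an unadjusted p under 0.05. When the library labelled bcat-1 day 2 replicate 3 was left out, 19 of the 22 were below 0, with a median of -0.08. At day 1, 17 of the 22 were below 0, with a median of -0.04.

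Of the stem cell and meiotic entry proteins, GLP-1 is the Notch receptor of germline stem cells, FBF-1 and FBF-2 are PUF proteins that repress meiotic mRNAs in the stem cell zone, and GLD-1, GLD-2, GLD-3 and NOS-3 act in the pathways that bring cells into meiosis. At day 2 fbf-2 (chromosome II, 6088863 to 6091480) stood at 12.8, 13.3 and 11.8 CPM in bcat-1 libraries, against 14.8, 15.3 and 14.3 CPM in L4440 libraries, so that the groups did not overlap. At day 1 its values were 14.8, 16.7 and 14.7 CPM in bcat-1 libraries, against 16.4, 16.1 and 15.1 CPM in L4440 libraries, and they overlapped. The day 2 log2 fold change was -0.23 (SE 0.10, adjusted p = 0.671 in the edgeR fit). Among the 34 genes fbf-2 has the lowest level per length.

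Its neighbour fbf-1, 8019 bases away, stood at 16.9, 20.2 and 17.5 CPM in bcat-1 libraries at day 2, against 17.6, 21.5 and 19.03 CPM in L4440 libraries. At day 1 it stood at 20.7, 22.3 and 20.8 CPM in bcat-1 libraries, against 21.7, 21.2 and 19.7 CPM in L4440 libraries. Its groups overlapped at both days, with a day 2 log2 fold change of -0.09 (SE 0.11). The ratio of fbf-1 to fbf-2 counts ran from 1.19 to 1.52 over the 12 libraries. The pair encode very similar proteins, and how reads that fit both were counted is not given in the sources used here.

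The Nanos family gene nos-3 stood at 253, 260.3 and 192 CPM in bcat-1 libraries at day 2, against 259, 295 and 260.2 CPM in L4440 libraries. Day 1 values were 271, 295 and 273 CPM in bcat-1 libraries, against 296, 278 and 273 CPM in L4440 libraries. The library labelled bcat-1 day 2 replicate 3 was far below the other 11, and the day 2 groups overlapped, with a log2 fold change of -0.21 (SE 0.11, adjusted p = 0.758 in the edgeR fit). It was -0.10 without that library.

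For glp-1 and gld-2, chosen after their values were seen, 1 library set the direction. At day 2 glp-1 (chromosome III, 9092241 to 9099698) stood at 270.1, 298 and 161 CPM in bcat-1 libraries, against 259, 307 and 263 CPM in L4440 libraries. Likewise gld-2, which encodes a cytoplasmic poly(A) polymerase, stood at 241, 251 and 124 CPM in bcat-1 libraries, against 229.8, 258 and 229 CPM in L4440 libraries. In each case the third bcat-1 value was the lowest of all 12 libraries, and the other bcat-1 libraries lay among the L4440 values. The log2 fold changes were -0.18 for glp-1 (SE 0.18) and -0.22 for gld-2 (SE 0.21) with all libraries, and 0.03 for each without the library labelled bcat-1 day 2 replicate 3. Without it 5 of the 7 stem cell and meiotic entry genes were below 0, with a median of -0.07. The most abundant member, gld-1, averaged 1060 ± 182 CPM in bcat-1 libraries and 1206 ± 160 CPM in L4440 libraries at day 2 (SD, n = 3 each), with a log2 fold change of -0.19 (SE 0.13), and -0.09 without that library. Of 18 other genes of the stem cell pool and meiotic entry, such as lst-1 and sygl-1, direct targets of Notch signalling in the niche, 14 were below 0 at day 2 and none passed the test (median -0.09).

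On the chromosome axis, HIM-3, HTP-1, HTP-2 and HTP-3 are the HORMA domain proteins that organise meiotic chromosomes. At day 2 htp-3 stood at 105, 116 and 85.3 CPM in bcat-1 libraries, against 106, 132 and 119.4 CPM in L4440 libraries. Day 1 values of htp-3 were 111, 109 and 108 CPM in bcat-1 libraries, against 122, 112 and 108 CPM in L4440 libraries. The day 2 log2 fold change was -0.22 (SE 0.11, adjusted p = 0.749 in the edgeR fit), with overlapping groups, and -0.12 without the library labelled bcat-1 day 2 replicate 3.

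The near-identical pair htp-1 and htp-2 lie on chromosome IV, at 5390189 to 5391557 and at 6419522 to 6420898. At day 2 htp-1 stood at 92.7, 108 and 99.6 CPM in bcat-1 libraries, against 93.8, 116 and 109.5 CPM in L4440 libraries. Its partner htp-2 stood at 50.4, 57.7 and 51.96 CPM in bcat-1 libraries, against 53.1, 62.9 and 58.9 CPM in L4440 libraries. Both pairs of groups overlapped, with log2 fold changes of -0.09 (SE 0.09) and -0.13 (SE 0.08). At day 1 htp-1 stood at 113, 109 and 109 CPM in bcat-1 libraries, against 110.1, 106 and 98.1 CPM in L4440 libraries. The day 1 values of htp-2 were 59.5, 60.2 and 58.1 CPM in bcat-1 libraries, against 61.7, 59.2 and 60.5 CPM in L4440 libraries. The ratio of htp-1 to htp-2 counts stayed between 1.62 and 1.92 over the 12 libraries (1.82 ± 0.08, SD, n = 12). Their separate levels are uncertain, since reads that fit both could be split between them.

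In the synaptonemal complex, SYP-1, SYP-2, SYP-3 and SYP-4 build the central region that holds paired homologues together. At day 2 syp-2 (chromosome V, 5536487 to 5537717) stood at 57.5, 68.8 and 89.4 CPM in bcat-1 libraries, against 58.2, 72.4 and 72.4 CPM in L4440 libraries. The third bcat-1 value was the highest of all 12 libraries, with the first the lowest. At day 1 it stood at 74.4, 60.8 and 58.7 CPM in bcat-1 libraries, against 60.8, 62.1 and 62.4 CPM in L4440 libraries. The day 2 log2 fold change was 0.09 (SE 0.15) with all libraries and -0.11 without the library labelled bcat-1 day 2 replicate 3. For syp-1 the day 2 values were 52.6, 57.5 and 49.7 CPM in bcat-1 libraries, against 48.8, 58.4 and 53.8 CPM in L4440 libraries. The day 1 values of syp-1 were 53.1, 51.7 and 50.8 CPM in bcat-1 libraries, against 56.1, 52.9 and 54.4 CPM in L4440 libraries. Its day 2 log2 fold change was -0.01 (SE 0.08), and the sign of so small a value changed in 10 of 25 other settings. Of the 3053 exon bases of syp-1, 517 are shared with another gene, F13A7.14.

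Of the pairing centre proteins, HIM-8 binds the pairing centre of the X chromosome, and ZIM-1, ZIM-2 and ZIM-3 bind those of the autosomes. At day 2 zim-2 stood at 56.5, 62.5 and 66.7 CPM in bcat-1 libraries, against 53.2, 62.3 and 57.4 CPM in L4440 libraries. Its day 1 values were 59.1, 51.3 and 56.5 CPM in bcat-1 libraries, against 56.8, 56.2 and 57.2 CPM in L4440 libraries. The groups overlapped at each day, with log2 fold changes of 0.10 (SE 0.09) at day 2 and -0.03 (SE 0.09) at day 1. Leaving out the library labelled bcat-1 day 2 replicate 3 gave 0.03 for zim-2 at day 2. For zim-3, day 2 gave 44.8, 53.9 and 48.2 CPM in bcat-1 libraries, against 41.6, 50.5 and 46.9 CPM in L4440 libraries. Day 1 gave 52.98, 47.3 and 49.3 CPM in bcat-1 libraries, against 51.99, 51.7 and 51.1 CPM in L4440 libraries. Here too the groups overlapped, with a day 2 log2 fold change of 0.08 (SE 0.09). The annotated exons of zim-1 and zim-2 share 223 bases, so their counts are not fully separate.

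For double-strand breaks and strand exchange, SPO-11 is the enzyme that cuts meiotic DNA, DSB-1 and DSB-2 are needed for its cuts, and RAD-51 coats the resected ends for strand exchange. At day 2 spo-11 stood at 47.2, 54.4 and 59.2 CPM in bcat-1 libraries, against 43.1, 53.8 and 48.6 CPM in L4440 libraries. At day 1 it stood at 60.5, 50.3 and 51.2 CPM in bcat-1 libraries, against 54.7, 54.1 and 52.97 CPM in L4440 libraries. Its day 2 log2 fold change of 0.14 (SE 0.11, adjusted p = 0.781 in the edgeR fit) was the highest among the 34 genes with all libraries, and the groups overlapped. Leaving out the library labelled bcat-1 day 2 replicate 3 gave 0.05, and zim-3 was then the highest at 0.08. The spo-11 exons share 23 bases with enpl-1, an abundant gene on the opposite strand with a mean of 20990 counts, and the library kit does not mark strand. For rad-51 the day 2 values were 93.3, 108 and 83.3 CPM in bcat-1 libraries, against 97.6, 111 and 105 CPM in L4440 libraries. The day 1 values were 98.6, 98.8 and 95.3 CPM in bcat-1 libraries, against 103, 94.5 and 95.2 CPM in L4440 libraries. Its log2 fold change was -0.14 (SE 0.09) at day 2, or -0.07 without that library, and 0.00 at day 1.

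Among the crossover factors, MSH-5 stabilises recombination intermediates, COSA-1 marks the sites that become crossovers, and ZHP-3 is a RING finger protein that gathers at them. At day 2 cosa-1 stood at 27.5, 32.1 and 28.1 CPM in bcat-1 libraries, against 25.8, 33.4 and 30.7 CPM in L4440 libraries. Its day 1 values were 28.99, 27.9 and 25.4 CPM in bcat-1 libraries, against 29.3, 27.2 and 26.6 CPM in L4440 libraries. For zhp-3 the day 2 values were 59.6, 71.2 and 68.2 CPM in bcat-1 libraries, against 58.03, 69.1 and 64.1 CPM in L4440 libraries. Neither gene separated the groups, with day 2 log2 fold changes of -0.03 (SE 0.11) for cosa-1 and 0.06 (SE 0.09) for zhp-3, or 0.02 without the library labelled bcat-1 day 2 replicate 3. At day 1 zhp-3 stood at 67.9, 60.2 and 62.4 CPM in bcat-1 libraries, against 62.2, 62.3 and 62.6 CPM in L4440 libraries. The third member, msh-5, had the narrowest span of the 34 genes, 1.18-fold from its lowest to its highest library.

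In meiotic cohesin, REC-8, COH-3 and COH-4 are the kleisin subunits of the cohesin rings that hold meiotic sister chromatids. At day 2 rec-8 (chromosome IV, 13349122 to 13353193) stood at 68.6, 69.5 and 55.7 CPM in bcat-1 libraries, against 69.6, 80.7 and 70.6 CPM in L4440 libraries. At day 1 it stood at 67.3, 71.4 and 69.4 CPM in bcat-1 libraries, against 75.5, 77.7 and 72.2 CPM in L4440 libraries. It was the only one of the 34 genes whose bcat-1 libraries all lay below the L4440 libraries at both days. Of all genes, 4.65% were lower without overlap at day 1 and 4.24% at day 2. The share of all genes at both days was not counted, so 1 of 34 cannot be judged against it. At day 2 the nearest values of the groups were 69.49 CPM in a bcat-1 library and 69.58 CPM in an L4440 library. The edgeR fit gave a log2 fold change of -0.19 at day 2 (SE 0.10), with an adjusted p of 0.743, and -0.11 without the library labelled bcat-1 day 2 replicate 3. The same fit gave -0.12 for day 1 (SE 0.09), with an adjusted p of 0.9999. The pair coh-3 and coh-4 encode closely similar proteins, whose reads may be shared between them. At day 2 coh-3 stood at 54.3, 60.01 and 54.6 CPM in bcat-1 libraries, against 51.2, 62.6 and 56.7 CPM in L4440 libraries. Its partner coh-4 stood at 28.04, 32.1 and 29.9 CPM in bcat-1 libraries, against 30.03, 34.2 and 32.4 CPM in L4440 libraries. All these groups overlapped, with log2 fold changes of -0.01 (SE 0.10) for coh-3 and -0.10 (SE 0.08) for coh-4. At day 1 coh-3 stood at 61.01, 55.1 and 51.95 CPM in bcat-1 libraries, against 60.1, 60.6 and 53.6 CPM in L4440 libraries. The day 1 values of coh-4 were 34.1, 34.02 and 33.5 CPM in bcat-1 libraries, against 34.3, 34.8 and 32.03 CPM in L4440 libraries. The ratio of coh-3 to coh-4 counts ran from 1.55 to 1.94. Of 38 other meiosis genes, 30 were below 0 at day 2 and 31 at day 1, with medians of -0.10 and -0.07 and none past the test.

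The difference between the RNAi effects at day 2 and day 1 passed the test for none of the 34 genes and for none of all genes tested (0%), while DESeq2 called 13 of all genes and limma-voom 0. No member had an unadjusted p under 0.05, against 2.64% of all genes. The median difference of the 34 genes on the log2 scale was -0.08, beside -0.03 over all genes. Leaving out single libraries moved it between -0.15 (without bcat-1 day 2 replicate 2) and -0.005 (without the library labelled bcat-1 day 2 replicate 3). With all libraries the widest was that of pgl-3, at -0.25 (SE 0.16, 95% interval -0.59 to 0.09). The 95% intervals of all 34 differences included 0, so no member's RNAi effect was shown to differ between the days.

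Between days on the same food, none of the 34 genes passed the test, where 593 of all genes did on bcat-1 RNAi (4.07%) and 335 on L4440 (2.3%). These comparisons share libraries with those above. On bcat-1 RNAi the median log2 fold change, day 2 over day 1, was -0.07, beside -0.005 over all genes, and on L4440 it was -0.02, beside -0.001. On bcat-1 RNAi 8 members were lower at day 2 without overlap: fbf-1, fbf-2, nos-3, htp-1, htp-2, coh-4, pgl-3 and glh-1. That compares with 9.95% of all genes. The log2 fold changes of fbf-2 (-0.29, SE 0.10), glh-1 (-0.29, SE 0.11) and nos-3 (-0.25, SE 0.11) had unadjusted p under 0.05, against 8.38% of all genes lower, and adjusted p of 0.145, 0.178 and 0.257 in the edgeR fit. Such members numbered 0 without bcat-1 day 1 replicate 2, 1 without bcat-1 day 1 replicate 3, 1 without the library labelled bcat-1 day 2 replicate 3 and 8 without bcat-1 day 2 replicate 2, where 12.7%, 15.8%, 20.5% and 22.9% of all genes had such a p in either direction, against 18.7% with all libraries. For nos-3 the log2 value was -0.15 without the library labelled bcat-1 day 2 replicate 3. On L4440 no member had an unadjusted p under 0.05, against 18.1% of all genes in either direction. There zim-3 was the 1 member without overlap, lower at day 2 (-0.16, SE 0.09), against 13.1% of all genes. The log2 values on L4440 were -0.10 for fbf-2, -0.11 for glh-1 and -0.06 for nos-3. Whether the change with age differs between foods is the difference tested above.

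Within day 2, in both foods, replicate 1 lay below replicate 2 for all 34 genes, against 37.5% of all genes tested that had this order in both foods. The mean deviation of the 34 genes from their 12-library means was -0.12 in bcat-1 replicate 1, 0.07 in bcat-1 replicate 2 and -0.16 for the library that carries the bcat-1 replicate 3 label. In L4440 it was -0.12 in replicate 1, 0.15 in replicate 2 and 0.03 in replicate 3, all on the log2 scale. L4440 replicate 2 was above the mean for all 34 genes and was the highest of the 12 libraries for 18 of them, against 9.54% of all genes. Of the 12 libraries, bcat-1 replicate 1 and L4440 replicate 1 were the lowest for 7 and 9 members, against 9.68% and 9.79% of all genes.

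Between replicates 1 and 2 of both foods, markers of other tissues ran the other way. The epidermis and moult list, 17 of whose 18 genes were tested, deviated by 0.79 and -0.43 in bcat-1 replicates 1 and 2, and by 0.80 and -0.38 in L4440 replicates 1 and 2. In replicate 3 this list deviated by 0.64 in the bcat-1 library and by 1.07 in the L4440 library, while the 34 genes averaged -0.16 and 0.03 there. Body wall muscle genes deviated by 0.10 and -0.49 in the bcat-1 libraries and by 0.31 and -0.38 in the L4440 libraries, and neuronal genes by 0.39 and -0.10 and by 0.56 and -0.19. Somatic gonad genes deviated by 0.34 and 0.06 and by 0.35 and -0.10, and intestine genes by 0.145 and -0.35 and by 0.27 and 0.04. Early embryo zygotic genes had this order too, as did sperm genes by little (0.11 and 0.09, and 0.24 and 0.19). In summed level the epidermis and moult genes gave 689, 337 and 436 CPM in bcat-1 libraries at day 2, against 734, 339 and 556 CPM in L4440 libraries. The 28 oocyte and maternal genes followed the members instead, at -0.12 and 0.08 in bcat-1 replicates 1 and 2 and -0.07 and 0.15 in L4440 replicates 1 and 2. The part of these tissues in the members' values was not tested.

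**Figure D3:**
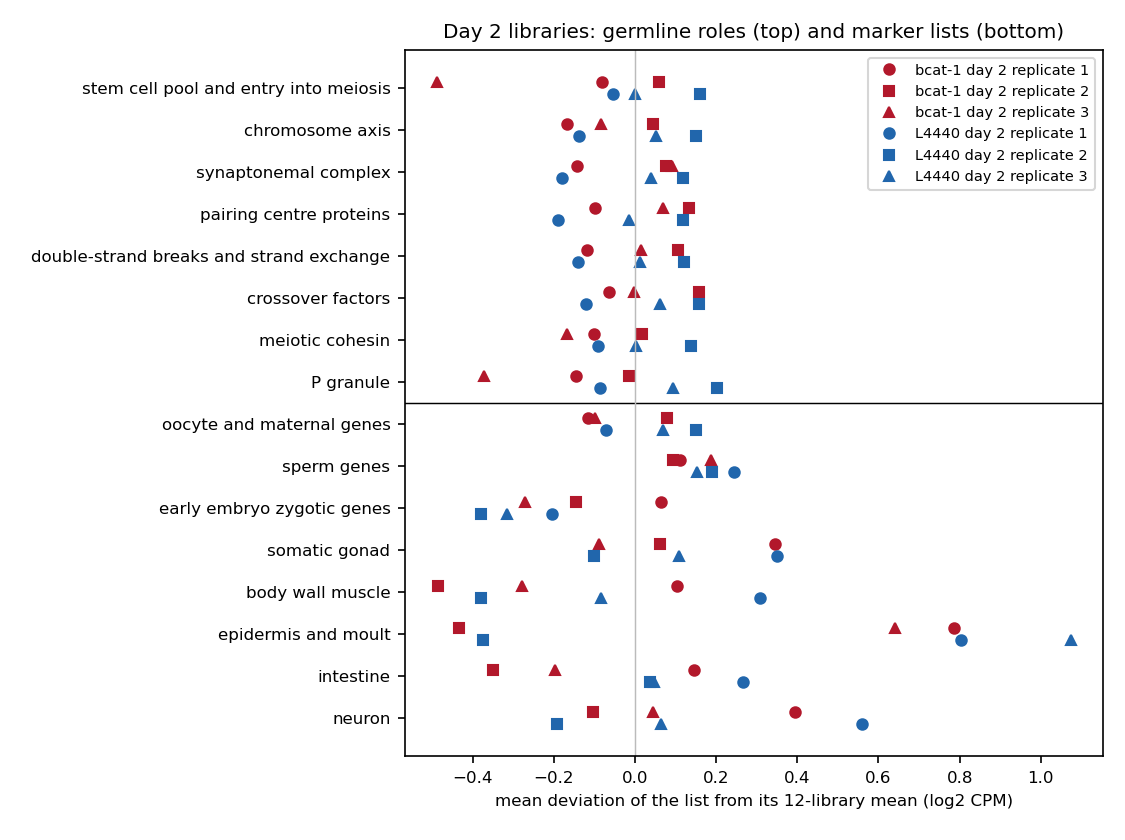
Mean deviation of each role of the 34 genes (top 8 rows) and of marker lists (bottom 8 rows) in the 6 libraries of day 2, on the log2 CPM scale relative to the 12-library mean. In both foods the circles (replicate 1) lie left of the squares (replicate 2) in every germline role and for oocyte and maternal genes. The order is turned round in all other marker lists, by little for sperm genes.

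The library labelled bcat-1 day 2 replicate 3 deviated along gene length. It was the lowest of the 12 libraries for 15 members, against 26% of all genes, and the highest for 5, against 19.8%. The 15 had a median exon length of 2492 bases and the 5 (syp-2, syp-3, dsb-2, him-3 and zim-2) of 1092 bases. Across the 34 genes the Spearman correlation of deviation with exon length in this library was -0.75, and across 14457 genes with a length it was -0.50. These are correlations across genes of 1 library, and genes are not independent replicates. The median deviation of all genes was 0.31 below 1 kilobase of exon, -0.01 from 1 to 2, -0.25 from 2 to 3 and -0.40 above 3 kilobases. The members followed the same steps, at 0.21 (2 genes), 0.02 (10 genes), -0.24 (14 genes) and -0.44 (8 genes). Both extremes among the members are in this library, gld-2 at -0.89 with 6283 exon bases and syp-2 at 0.44 with 1092. The library bcat-1 day 1 replicate 1 had a correlation of -0.79 across the members and -0.41 across all genes. In the remaining libraries it ran from -0.025 (bcat-1 day 2 replicate 2) to 0.72 (L4440 day 1 replicate 1) across the members. Across all genes it ran there from -0.009 (L4440 day 1 replicate 3) to 0.25 (bcat-1 day 2 replicate 1).

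With a trend on exon length taken out of each library, a setting chosen after the data were seen, the day 2 median of the P granule genes was -0.13, with 5 of 5 below 0. The stem cell and meiotic entry genes then had a median of -0.09, with 7 of 7 below 0, and pgl-3 was at -0.29 (adjusted p = 0.368 in the edgeR fit). In this setting the chromosome axis genes had the lowest median of any role, at -0.15 (3 of 4 below 0).

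**Figure D4:**
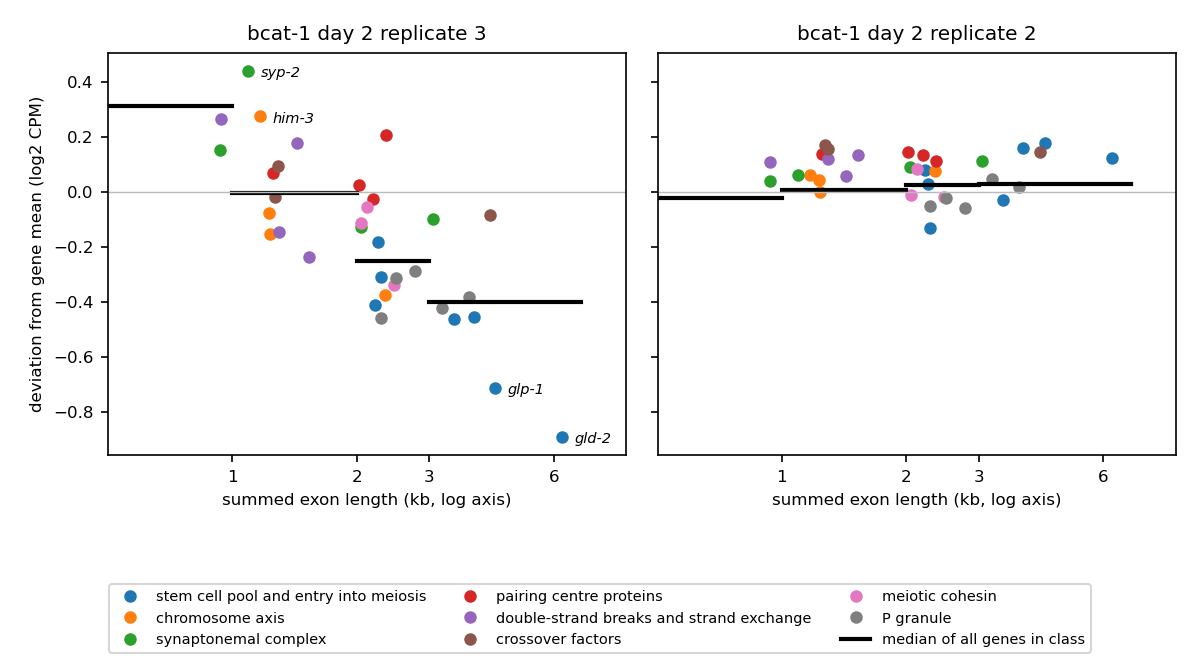
Deviation of each of the 34 genes from its 12-library mean (log2 CPM) against its summed exon length on a log axis, for the library labelled bcat-1 day 2 replicate 3 (left) and in bcat-1 day 2 replicate 2 (right). Black lines are the medians of all genes tested in a length class. On the left the members run from 0.44 for syp-2 to -0.89 for gld-2, along with the class medians, and on the right they lie between -0.13 and 0.18.

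**Figure D5:**
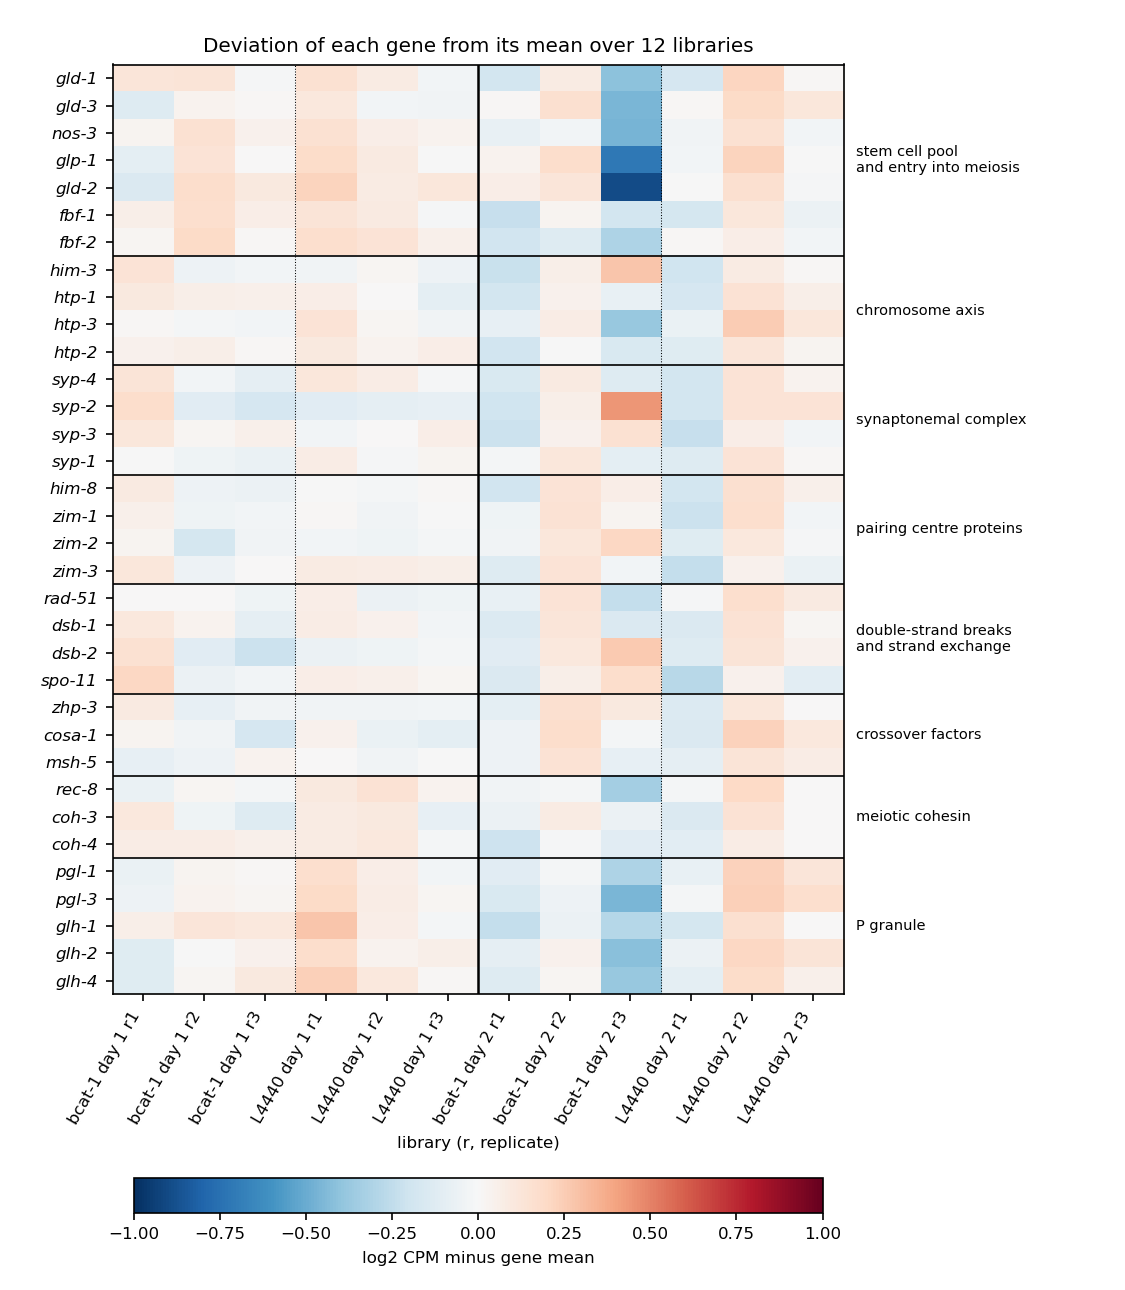
Deviation of each of the 34 genes from its own mean over the 12 libraries, in log2 CPM, with genes in rows by role and libraries in columns. The column of the library labelled bcat-1 day 2 replicate 3 is darkest, L4440 day 2 replicate 2 is above the mean in all 34 rows, and replicate 1 of each food at day 2 is below it in 31 and 32 rows.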

How the data were processed

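Polyadenylated RNA of whole worms was prepared with the TruSeq RNA v2 kit, which does not mark strand, per the labels' protocols. Per the submitters' processing notes, bcl2fastq 1.8.4, STAR 2.4.1d, featureCounts 1.4.6-p4 and the build WBcel235 were used. The authors deposited whole-number read counts per gene for 12 libraries, and every value comes from this table. Whether counting used strand, and what was done with reads of overlapping genes or repeated sequence, is not given in the sources used here. A second table, of RPKM values, was not used, because its ratio to the counts does not follow library totals. Symbols, positions and exon lengths come from Ensembl annotation 115, in which all 34 genes matched.

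The tests used edgeR 4.0.16 (R 4.3.3). filterByExpr by group left 14567 genes, and TMM factors scaled the library sizes. One fit over the 12 libraries, with a separate mean per group, left 8 degrees of freedom for the spread. The 5 contrasts were tested two-sided, with Benjamini-Hochberg adjustment over all genes tested and a threshold of 0.05. The edgeR steps were tested on simulated data, in which the planted changes were larger than those of any member. That test therefore does not bear on changes as small as the members'. Nor did any simulated library deviate along gene length, unlike the library labelled bcat-1 day 2 replicate 3. Replicate libraries were compared, and every pair differed beyond counting noise. Each was counted as 1 sample, but this comparison cannot show whether libraries came from separate cultures. Intervals are at 95%, and they and the SE rest on the fit.

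The members and gene lists were chosen with earlier results of these data known. Values in every library are given for the 2 members of each role with the smallest unadjusted p, since none passed the test, and for near-identical pairs. Other members given in full are named as chosen after their values were seen. Of the written list genes, 3 could not be matched to the count table. Alternatives were RLE, upper-quartile and unscaled library sizes, DESeq2 1.42.0, limma-voom (limma 3.58.1), other filters, other sets of libraries, a count table without ribosomal RNA genes and, added after the data were seen, a trend on exon length and leaving out both libraries most related to it.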

Additional observations from a re-analysis of the deposited data

How the results depend on the processing

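None of the 34 genes passed the test in any of the 5 comparisons under any of 25 other settings. The lowest adjusted p was 0.0756, for fbf-2 between days on bcat-1 RNAi with DESeq2, and for the RNAi effect at day 2 it was 0.162, for pgl-3 with DESeq2. All genes called at day 2 numbered 61 in the main fit and from 0 (only the compared groups fitted) to 195 (DESeq2). With library size only, the member median was -0.20 for the RNAi effect at day 2, with 33 of 34 genes lower and an all-gene median of -0.14, and -0.17 between days on bcat-1 RNAi. Leaving out each library in turn moved the day 2 RNAi median between -0.154 and -0.0144, where the all-gene medians were 0.025 and -0.034. The median between days on bcat-1 RNAi moved between -0.162 and -0.0391, and that on L4440 between -0.0974 and 0.0494. Signs at day 2 were followed over the settings for the 20 members picked by rule for full values and for glp-1, gld-2 and pgl-1. Among these, the signs that changed were those of small log2 values and of glp-1 and gld-2. Signs of other members changed too, such as him-3 at -0.06, dsb-2 at -0.03 and syp-3 at -0.03 without the library labelled bcat-1 day 2 replicate 3. With library size only, syp-2 was at -0.0837, zim-2 at -0.0343, zim-3 at -0.0388 and zhp-3 at -0.0693. With upper-quartile factors syp-1 was at 0.0296, cosa-1 at 0.00408 and coh-3 at 0.0264. For syp-1 the value was 0.00171 with limma-voom and 0.00336 with the stricter filter, and with only the compared groups it was 0.00908, with coh-3 at 0.00526. Leaving out each library in turn gave -0.0729 to 0.0564 for syp-1, -0.114 to 0.224 for syp-2, -0.133 to 0.0506 for cosa-1, -0.00585 to 0.130 for zhp-3, -0.0833 to 0.0612 for coh-3, -0.359 to 0.0261 for glp-1 and -0.386 to 0.0278 for gld-2. Without both libraries richest in ribosomal RNA, syp-1 was at 0.0302, syp-2 at -0.0562 and gld-2 at 0.00285. With the exon length trend, syp-1 was at 0.104 and coh-3 at 0.0406. Without both libraries most related to length, syp-1 was at 0.0321, syp-2 at -0.105, coh-3 at 0.00282, glp-1 at 0.0354 and gld-2 at 0.0369. The cause was not tested. A fit of only the compared groups does not exist for the difference between days, which uses all 4.

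No paired analysis was possible because the labels give only a running library number, with no replicate number and no shared culture, batch or day. With 3 libraries per group the SE at day 2 had a median of 0.107 on the log2 scale, so members' values of this size could not be told from the spread between libraries at the adjusted threshold.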
